A study of Mus musculus with 6 samples.

Results

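Postsynaptic scaffolds and synaptic adhesion proteins were followed as a set of 51 genes, named by symbol and matched through the GENCODE M21 annotation to the Ensembl identifiers of the deposited count table. All 51 were found among its 33084 genes, and all 51 were among the 19403 genes with enough counts to be tested. The RNA came from microdissected mouse forebrain at embryonic day 15.5, in 3 samples heterozygous for an inactive Dyrk1a allele (Dyrk1a+/-) and 3 wild-type (wt) control samples from the same mouse line. Dyrk1a encodes a protein kinase on whose dose the growth of the brain depends. The labels call the samples of a genotype biological replicates. They do not say whether each is 1 embryo or a pool, which part of Dyrk1a is inactive, or on which genetic background. The p-values therefore set the genotype difference against the spread between samples of the same genotype, for these 6 samples. The comparison asks how forebrain transcripts differ when 1 copy of Dyrk1a is inactive.

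At an excitatory synapse the postsynaptic density is a layered scaffold. DLG proteins of the membrane-associated guanylate kinase family hold receptors and adhesion molecules through PDZ domains, DLGAP proteins link them to SHANK proteins, and HOMER proteins tie SHANK to receptors and calcium stores. Adhesion molecules span the cleft: presynaptic neurexins and receptor-type tyrosine phosphatases bind postsynaptic neuroligins and leucine-rich repeat proteins, and secreted cerebellins bridge neurexins to postsynaptic receptors. In the mouse forebrain most synapses form after birth, so at this embryonic stage many of these genes are transcribed in young neurons that carry few mature synapses.

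Of the 51 genes, 44 had a lower fitted level in Dyrk1a+/- and 7 a higher one, with a median log2 fold change of -0.12. Over all 19403 genes tested, 48.8% were lower and the median was 0.0048. The largest difference was that of Dlgap1, a scaffold of the postsynaptic density, whose mean level was 49.0% of wt, and next came Camk2b, the beta subunit of calcium/calmodulin-dependent kinase II, at 76.2% of wt. By the quasi-likelihood test of edgeR, with Benjamini-Hochberg adjustment over all genes, none of the 51 had an adjusted p under 0.05 (the lowest was 0.483), a threshold that 0.0103% of all genes passed. DESeq2 called none of the 51 either, and 0.0877% of all genes. At an unadjusted p under 0.05, 9 of the 51 (17.6%) were lower, against 4.61% of all genes tested, and 0 were higher, against 3.27%. The 3 Dyrk1a+/- libraries lay below all 3 wt libraries in 12 genes (23.5%), against 7.49% of all genes, and above them in 0, against 6.53%. Among the 10934 genes with a mean of at least 10 CPM (the CPM unit scales each count by the effective library size), which all of the 51 but Nrgn and Cbln4 reached, 43.7% were lower, 4.45% were lower at an unadjusted p under 0.05 and 6.78% did not overlap and were lower. Because the genes were chosen with earlier results of these data known, these shares describe the set and are no test of it. In bulk forebrain RNA, fewer cells that express a gene and less RNA per cell cannot be told apart.

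Library totals ran from 18699434 to 32865708 counts, and the 51 genes had between 37 counts (Nrgn, lowest library) and 33984 counts (Ptprs, highest library). Dyrk1a was at 149, 147 and 158 CPM in Dyrk1a+/- and at 177, 186 and 160 CPM in wt, without overlap, but it did not pass the test (log2 fold change -0.20, SE 0.079; adjusted p = 0.59 by edgeR with Benjamini-Hochberg). Counts over the whole gene check the genotype only weakly, since the inactive part is not named. Of 7 forebrain markers (Emx1, Emx2, Tbr1, Dlx1, Dlx2, Gsx2 and Lhx2) all 7 were higher (median log2 fold change 0.18), and they summed to 293 to 363 CPM in Dyrk1a+/- and 269 to 297 CPM in wt. Lhx2 was at 85.6 to 106 CPM in Dyrk1a+/- and 68.8 to 82.6 CPM in wt and was the 1 of the 7 without overlap and at an unadjusted p under 0.05. The 8 listed hindbrain and spinal cord markers in the table, such as En1 and Hox genes, summed to at most 0.587 CPM in Dyrk1a+/- and 1.55 CPM in wt, with Hoxb2 at 0 counts in all libraries. A pair of libraries, Dyrk1a+/- replicate 2 and wt replicate 3, stood apart from the other 4 on the first principal component (34.9% of the variance) and held 4% and 4.46% of counts in the non-coding RNAs 7SK, RNase P and RNase MRP, against 2.57% to 3.01%; results are therefore also given within the pair and within the other 4.

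The 3 genes with the lowest p among the 51 were Dlgap1, Camk2b and Slitrk5, and their promoter windows are shown for that reason; several other genes had larger fold changes than Slitrk5. Each runs 5′ to 3′ on the gene's strand, from 250 bases before a RefSeq transcription start to 50 after it, on GRCm38.p6. Dlgap1 has 2 annotated starts in the table, far apart, at chr17:69968823-69969122 and chr17:70561497-70561796 on the plus strand, and counts per gene do not tell their transcripts apart. The Camk2b window is chr11:6065699-6065998 on the minus strand, and that of Slitrk5 is chr14:111675777-111676076 on the plus strand. Capitals mark matches, on either strand, to any of 7 short motifs. They were the cyclic AMP response element (TGACGTCA), the CCAAT box and the GC box (GGGCGG). The TATA box was searched as TATAAA and an E-box as CAGCTG. The left and right parts of the element bound by the repressor REST were searched as CAGCACC and, for the right part, GGACAG.
Dlgap1, upstream start: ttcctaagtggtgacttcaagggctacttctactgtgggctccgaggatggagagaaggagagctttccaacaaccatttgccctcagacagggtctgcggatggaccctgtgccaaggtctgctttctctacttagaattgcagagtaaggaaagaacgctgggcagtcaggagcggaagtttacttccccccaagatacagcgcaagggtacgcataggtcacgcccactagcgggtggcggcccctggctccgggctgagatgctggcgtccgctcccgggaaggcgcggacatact
Dlgap1, downstream start: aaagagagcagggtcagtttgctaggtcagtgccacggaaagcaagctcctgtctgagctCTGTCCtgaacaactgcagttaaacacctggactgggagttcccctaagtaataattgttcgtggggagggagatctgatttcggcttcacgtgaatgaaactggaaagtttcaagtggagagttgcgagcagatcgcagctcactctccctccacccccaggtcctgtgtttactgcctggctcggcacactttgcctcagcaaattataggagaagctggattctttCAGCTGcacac
Camk2b: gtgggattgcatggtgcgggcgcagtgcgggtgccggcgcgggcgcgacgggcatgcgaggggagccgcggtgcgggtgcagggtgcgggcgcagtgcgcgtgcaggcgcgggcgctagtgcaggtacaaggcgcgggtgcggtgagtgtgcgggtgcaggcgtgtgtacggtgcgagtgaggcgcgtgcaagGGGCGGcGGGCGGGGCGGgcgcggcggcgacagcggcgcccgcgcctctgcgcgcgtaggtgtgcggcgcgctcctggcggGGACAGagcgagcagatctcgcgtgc
Slitrk5: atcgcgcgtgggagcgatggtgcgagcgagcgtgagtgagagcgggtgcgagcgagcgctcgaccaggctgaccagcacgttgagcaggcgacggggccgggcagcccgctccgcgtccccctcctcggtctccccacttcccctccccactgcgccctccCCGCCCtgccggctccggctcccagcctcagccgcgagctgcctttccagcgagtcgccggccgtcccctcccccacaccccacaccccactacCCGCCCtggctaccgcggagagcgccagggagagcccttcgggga

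The upstream Dlgap1 window held none of the 7 motifs and the downstream one a GGACAG, read on the other strand, and a CAGCTG. The Camk2b window, of 77.3% GC, held 3 GC boxes, the last 2 of which share a base, and a GGACAG; the Slitrk5 window, of 74.3% GC, held 2 GC boxes on the other strand. Of the 51 genes 36 have promoter windows in the table, 55 in all, and the windows had a median GC content of 59.3%, against 52.7% over all 32851 windows. GGGCGG was in 58.3% of the 36 genes and 38.2% of all genes, GGACAG in 36.1% and 24.7%, CAGCTG in 30.6% and 18.3%, and CCAAT in 38.9% and 41.1%. CAGCACC was in 8.33% and 8.14%, TATAAA in 13.9% and 15.7%, and TGACGTCA in 2 genes, Ptprs and Slitrk2 (5.56%), against 2.03%. These are matches of letters, counted per gene over all its windows, and genes with more than 1 window have more chances to hold one. Counted per window, GGGCGG was in 41.8% of the 55 windows and 35.7% of all windows. By the same count, GGACAG was in 23.6% and 22.2%, CAGCTG in 23.6% and 16.3%, and TGACGTCA in 3.64% and 1.79%. Lower shares than over all windows were found for CCAAT (30.9% and 37.4%), CAGCACC (5.45% and 7.14%) and TATAAA (9.09% and 13.6%).

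**Figure D1:**
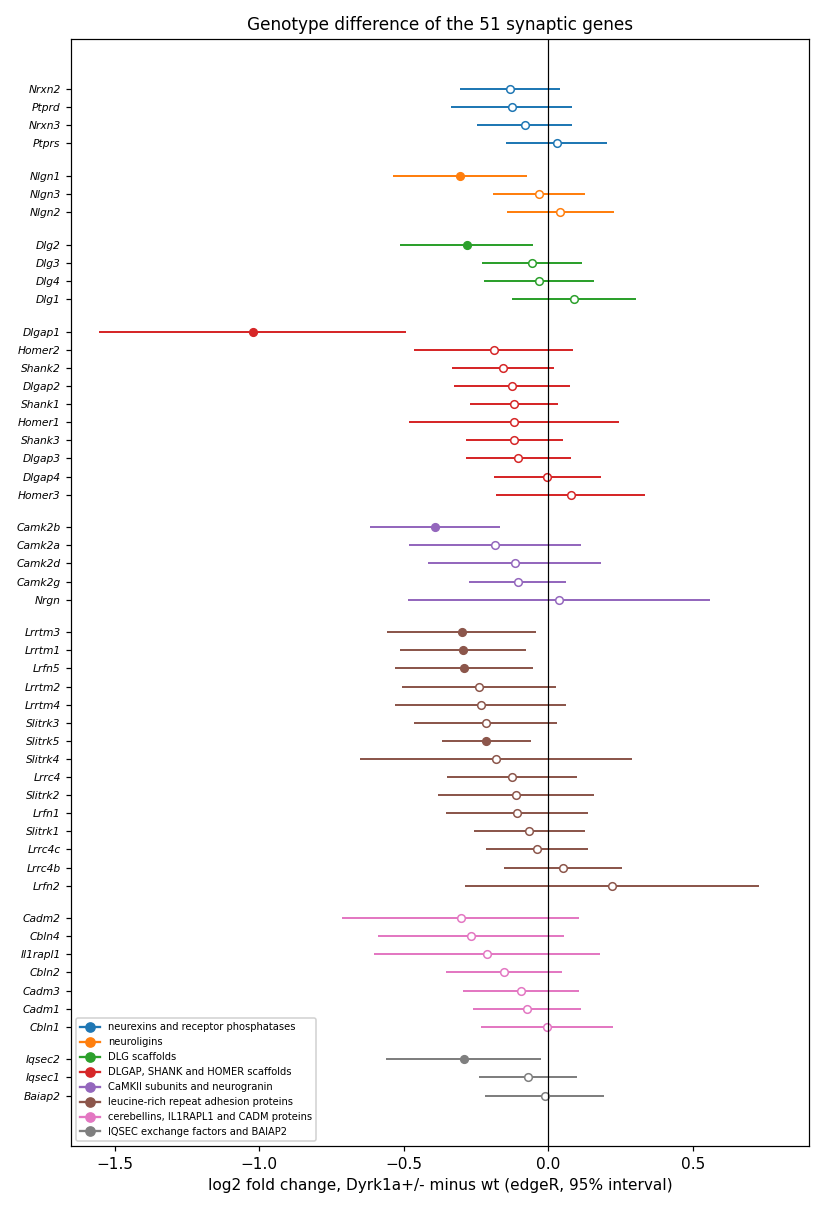
Log2 fold change (x axis, Dyrk1a+/- minus wt) of each of the 51 genes, with its 95% interval from edgeR, grouped and coloured by role; filled points are at an unadjusted p under 0.05. All 9 filled points lie left of 0, and Dlgap1, at -1.02, stands apart from the others, which run from -0.39 to 0.22.

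Among the DLGAP, SHANK and HOMER scaffolds, 9 of 10 were lower (median log2 fold change -0.12), and in 6 the Dyrk1a+/- libraries lay below all wt libraries, against 7.49% of all genes. Dlgap1 (ENSMUSG00000003279, GRCm38 chromosome 17, 69969073 to 70821413) encodes a protein that joins DLG to SHANK. Its levels were 29.9, 49.2 and 22.7 CPM in Dyrk1a+/- and 73.1, 70.3 and 64.0 CPM in wt. The 3 wt libraries were close together, the Dyrk1a+/- libraries were spread more widely, and the highest Dyrk1a+/- library was still below the lowest wt one. The means were 33.9 ± 13.7 CPM in Dyrk1a+/- and 69.2 ± 4.65 CPM in wt (SD, n = 3 each), a log2 fold change of -1.02 (SE 0.233, 95% interval -1.55 to -0.50; adjusted p = 0.483 by edgeR with Benjamini-Hochberg). A log2 fold change of -1 or less was found in 0.448% of all genes. The call turned on Dyrk1a+/- replicate 2, of the library pair: without it the log2 fold change was -1.395 and Dlgap1 passed (adjusted p = 0.0213 by edgeR with Benjamini-Hochberg; 0.0253% of genes passed in that fit), and on the 4 other libraries alone it was -1.445 (adjusted p = 0.00619; 0.0311% of genes passed). The pair did not share a shift in Dlgap1. Against the other libraries of its genotype, the library of the pair differed by 0.92 in log2 CPM in Dyrk1a+/- and by -0.16 in wt. Over all 18 alternative settings the adjusted p ran from 0.00619 to 0.999 and the log2 fold change from -1.445 to -0.805.

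The other DLGAP genes differed less. Dlgap2 and Dlgap3 were each lower in all 3 Dyrk1a+/- libraries than in any wt library, at 91.7% and 93.1% of the wt mean, with 95% intervals that include 0 (-0.32 to 0.07 and -0.28 to 0.07). Dlgap4 was the most abundant gene of this class per length, and its means were close: 197, 216 and 203 CPM in Dyrk1a+/- and 197, 197 and 223 CPM in wt, a log2 fold change of -0.0031 (95% interval -0.18 to 0.18), with overlapping groups. SHANK proteins are the master scaffolds of the deeper layer of the density. Shank1 was at 62.0, 61.8 and 60.0 CPM in Dyrk1a+/- and 67.9, 66.8 and 65.0 CPM in wt, Shank2 at 74.8, 83.8 and 78.2 CPM in Dyrk1a+/- and 93.2, 84.4 and 86.3 CPM in wt, and Shank3 at 66.5, 72.1 and 71.6 CPM in Dyrk1a+/- and 79.0, 72.2 and 76.8 CPM in wt. In each of the 3 the Dyrk1a+/- libraries lay below the wt libraries, narrowly for Shank2 and Shank3, and the differences were small: 92%, 89.7% and 92.2% of the wt mean, with no 95% interval free of 0. The HOMER genes, whose proteins couple SHANK to metabotropic glutamate receptors, overlapped between genotypes, with log2 fold changes of -0.12 for Homer1, -0.19 for Homer2 and 0.08 for Homer3; the exons of Homer3 overlap those of Ddx49 on the opposite strand, a gene of 38 CPM on average.

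**Figure D2:**
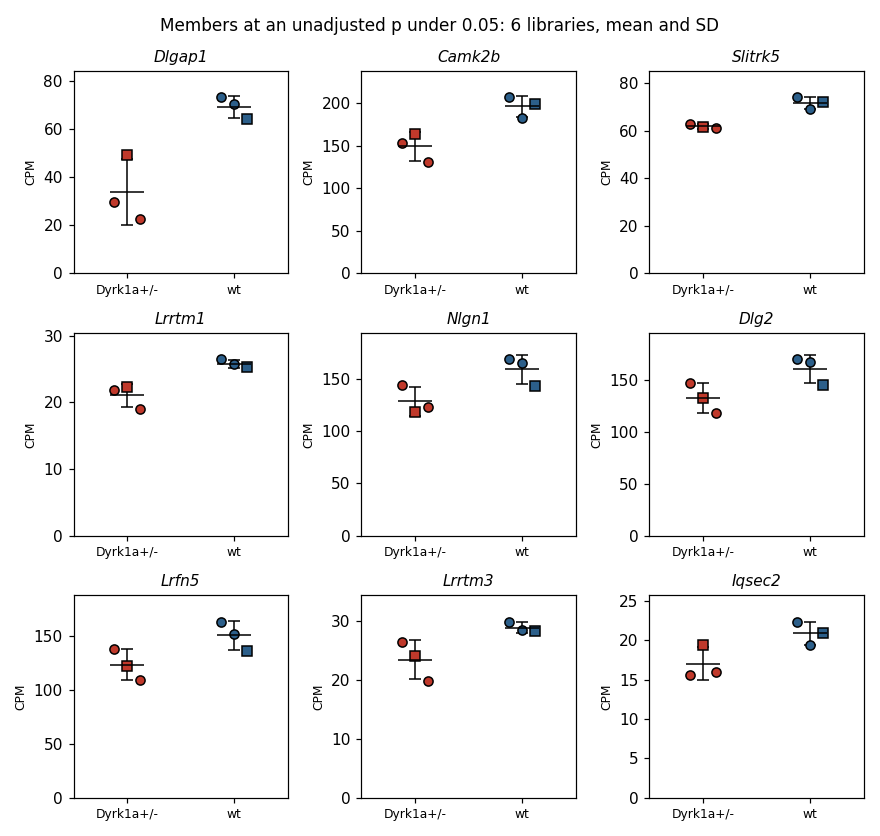
CPM (y axis, from 0) of the 9 genes at an unadjusted p under 0.05 in the 3 Dyrk1a+/- libraries (red, left) and the 3 wt libraries (blue, right); bars are the mean and SD, and squares are Dyrk1a+/- replicate 2 and wt replicate 3, the pair that stands apart. Dlgap1, Camk2b, Slitrk5, Lrrtm1 and Lrrtm3 do not overlap, and the other 4 overlap by 1 library or a narrow margin.

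DLG scaffolds bind the tails of receptors and adhesion proteins. Of the 4 genes, 3 were lower (median log2 fold change -0.044). Dlg2, which encodes PSD-93, was at 147, 133 and 118 CPM in Dyrk1a+/- and 170, 168 and 146 CPM in wt. The highest Dyrk1a+/- library lay just above the lowest wt one, and the log2 fold change was -0.28 (SE 0.1; adjusted p = 0.554 by edgeR with Benjamini-Hochberg). Gm45159, a non-coding gene on the same strand with 58.4 CPM on average, shares 75 exonic bases with Dlg2, so reads there may have been left out or assigned to either. Dlg3, which encodes SAP102, a DLG protein prominent in early development, was the most abundant of the 4 per length, at 110, 126 and 116 CPM in Dyrk1a+/- and 121, 123 and 122 CPM in wt (log2 fold change -0.06, 95% interval -0.22 to 0.11). Dlg4, which encodes PSD-95, had a log2 fold change of -0.03 and Dlg1, which encodes SAP97, one of 0.09, both with overlapping groups.

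Of the CaMKII subunits and neurogranin, which binds calmodulin in dendrites, 4 of 5 were lower. Camk2b (ENSMUSG00000057897, chromosome 11, 5969644 to 6066362), the subunit that also bundles actin and that leads in immature neurons, was at 153, 164 and 131 CPM in Dyrk1a+/- and 207, 183 and 199 CPM in wt. All 3 Dyrk1a+/- libraries lay below the wt libraries. The means were 150 ± 16.9 CPM in Dyrk1a+/- and 196 ± 12.4 CPM in wt (SD, n = 3 each), a log2 fold change of -0.39 (SE 0.097, 95% interval -0.61 to -0.17; adjusted p = 0.483 by edgeR with Benjamini-Hochberg), and in none of the 18 alternative settings did it pass (adjusted p 0.0992 to 0.999). Camk2a, the subunit that dominates in the adult forebrain, was less abundant per length, at 25.0, 32.5 and 30.9 CPM in Dyrk1a+/- and 37.8, 29.0 and 33.8 CPM in wt, with overlap (log2 fold change -0.19, 95% interval -0.48 to 0.11). Camk2d and Camk2g had log2 fold changes of -0.12 and -0.11. Nrgn had the lowest level of all 51 per length and between 37 and 70 counts per library, and its log2 fold change of 0.04 had a 95% interval of -0.48 to 0.55.

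Presynaptic partners came next. Of the neurexins and receptor phosphatases, 3 of 4 were lower and none reached an unadjusted p under 0.05. Nrxn2 was at 238, 264 and 244 CPM in Dyrk1a+/- and 267, 264 and 287 CPM in wt, 2 of the values being almost equal (263.5 in Dyrk1a+/- replicate 2 and 264.1 in wt replicate 2), with a log2 fold change of -0.13 (SE 0.075; adjusted p = 0.716 by edgeR with Benjamini-Hochberg). Ptprs, a receptor phosphatase that binds several postsynaptic adhesion proteins, was the most abundant of all 51 genes per length, at 1037, 1152 and 1137 CPM in Dyrk1a+/- and 1037, 1078 and 1145 CPM in wt. Its groups overlapped and the 95% interval of its log2 fold change, -0.14 to 0.20, includes 0. Nrxn3 and Ptprd were at 94.5% and 91.6% of the wt mean, also with overlap.

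Neuroligins bind neurexins from the postsynaptic side. Nlgn1, the neuroligin of excitatory synapses, was at 145, 119 and 123 CPM in Dyrk1a+/- and 169, 166 and 143 CPM in wt. A single Dyrk1a+/- library exceeded the lowest wt library, by a small margin, and the log2 fold change was -0.31 (SE 0.1; adjusted p = 0.526 by edgeR with Benjamini-Hochberg). Nlgn2, the neuroligin of inhibitory synapses, was at 110, 126 and 122 CPM in Dyrk1a+/- and 109, 121 and 119 CPM in wt (log2 fold change 0.04, 95% interval -0.14 to 0.22), and Nlgn3 had a log2 fold change of -0.03; both overlapped. The log2 ratio of Nlgn3 to Nlgn1 counts within a library, which does not depend on how libraries are scaled, was -1.001, -0.764 and -0.8 in Dyrk1a+/- and -1.172, -1.165 and -1.055 in wt. The groups did not overlap and differed by 0.28. The exact 2-sided permutation p was 0.1, the smallest that 3 against 3 libraries allow (adjusted p = 0.7 over 7 ratios). In each genotype the library of the pair had the highest ratio (-0.764 in Dyrk1a+/- and -1.055 in wt). The longest transcript has 38.9% GC in Nlgn1 and 49.3% in Nlgn3, and the part of GC content in this ratio was not tested. The other 6 ratios (Nlgn2 to Nlgn1, Camk2b to Camk2a, Dlg4 to Dlg1 and to Dlg3, Homer1 to Homer3, Cbln2 to Cbln1) overlapped, with differences from -0.21 to 0.35 and exact permutation p values of 0.2 to 0.7.

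The leucine-rich repeat adhesion proteins, most of them postsynaptic ligands of neurexins or receptor phosphatases, gave 13 of 15 lower values (median log2 fold change -0.18). Of these, 4 were at an unadjusted p under 0.05 by edgeR. Over all genes tested, 48.8% were lower, and 4.61% were lower at that threshold. Slitrk5 was at 62.9, 61.6 and 61.0 CPM in Dyrk1a+/- and 74.1, 69.1 and 71.9 CPM in wt. The groups were tight and apart, and the log2 fold change was -0.21 (SE 0.067; adjusted p = 0.518 by edgeR with Benjamini-Hochberg). All 4 LRRTM genes, whose products bind neurexins, had log2 fold changes between -0.30 and -0.23. Lrrtm1 was at 21.8, 22.2 and 19.0 CPM in Dyrk1a+/- and 26.4, 25.7 and 25.2 CPM in wt, and Lrrtm3 at 26.5, 24.0 and 19.9 CPM in Dyrk1a+/- and 29.9, 28.5 and 28.3 CPM in wt. Neither overlapped, while Lrrtm2 and Lrrtm4 did; 95 exonic bases of Lrrtm2 lie opposite Ctnna1, a gene of 95.8 CPM on average. Lrfn5, of the SALM family of adhesion proteins, was at 138, 122 and 109 CPM in Dyrk1a+/- and 163, 152 and 136 CPM in wt, with slight overlap and a log2 fold change of -0.29 (SE 0.104). Its relative Lrfn2 had the highest log2 fold change of the 51, 0.22, with a 95% interval of -0.28 to 0.73: its libraries ran from 19.9 to 35.4 CPM in Dyrk1a+/- and from 19.6 to 30.5 CPM in wt. Lrrc4b, which encodes the netrin-G ligand family member NGL-3, was the most abundant of this class per length, at 135, 137 and 150 CPM in Dyrk1a+/- and 122, 144 and 142 CPM in wt (log2 fold change 0.05). Lrrc4, Lrrc4c, Lrfn1 and the other SLITRK genes were at 86.1% to 97.3% of the wt mean with overlapping groups.

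All 7 genes of the cerebellins, the interleukin-1 receptor relative Il1rapl1 and the CADM immunoglobulin adhesion proteins had lower values (median log2 fold change -0.15), and none was at an unadjusted p under 0.05. Cbln4 was at 6.57, 5.03 and 5.55 CPM in Dyrk1a+/- and 7.11, 6.78 and 6.70 CPM in wt, without overlap (log2 fold change -0.27, SE 0.14; adjusted p = 0.702 by edgeR with Benjamini-Hochberg). It was the least abundant of the cerebellins per length, and Cbln1 had a log2 fold change of -0.0058 (95% interval -0.23 to 0.22). Cadm1 was the most abundant of the class per length, at 287, 252 and 256 CPM in Dyrk1a+/- and 291, 284 and 261 CPM in wt, with overlap. Cadm2 had a log2 fold change of -0.30 but wide scatter, from 71.6 to 109 CPM in Dyrk1a+/- and from 87.8 to 133 CPM in wt. The lowest value of each genotype was that of the library pair. In log2 CPM, Cadm2 differed by -0.29 within the pair and by -0.31 within the other 4 libraries. Of the remaining 3 genes, Iqsec2, an exchange factor for ARF GTPases on the X chromosome, was at 15.7, 19.4 and 16.0 CPM in Dyrk1a+/- and 22.4, 19.4 and 20.9 CPM in wt, a log2 fold change of -0.29 (SE 0.117; adjusted p = 0.597 by edgeR with Benjamini-Hochberg), with Dyrk1a+/- replicate 2 level with wt replicate 2. Iqsec1 was at 85.4, 96.2 and 87.8 CPM in Dyrk1a+/- and 95.5, 90.9 and 96.3 CPM in wt, with overlap, and Baiap2, a regulator of actin in spines, had a log2 fold change of -0.01.

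**Figure D3:**
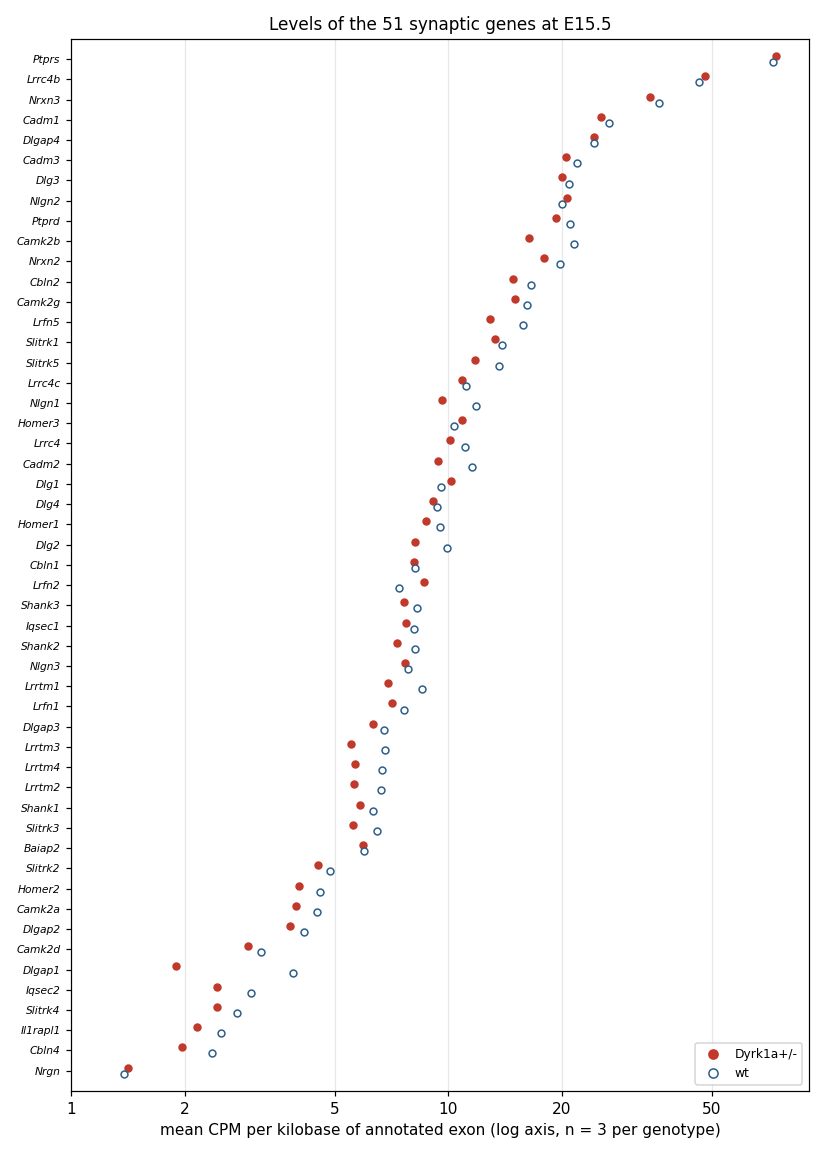
Mean level of each of the 51 genes in Dyrk1a+/- (filled red) and wt (open blue), as CPM per kilobase of annotated exon on a log x axis, ordered from high to low. Levels run from 74.0 in Dyrk1a+/- and 72.5 in wt for Ptprs to 1.41 in Dyrk1a+/- and 1.38 in wt for Nrgn, and the filled points lie left of the open ones in most genes.

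Compared per length, as CPM per kilobase of annotated exon, the levels of the 51 genes spanned from Ptprs, at 74.0 ± 4.17 in Dyrk1a+/- and 72.5 ± 3.66 in wt, to Nrgn, at 1.41 ± 0.189 in Dyrk1a+/- and 1.38 ± 0.313 in wt (SD, n = 3 each). Lrrc4b followed Ptprs at 48.0 in Dyrk1a+/- and 46.4 in wt, and Nrxn3 came after it at 34.2 in Dyrk1a+/- and 36.2 in wt; these 3 were separated by more than their spread. Cadm1 (25.4 ± 1.82 in Dyrk1a+/- and 26.7 ± 1.52 in wt) and Dlgap4 (24.3 ± 1.136 in Dyrk1a+/- and 24.3 ± 1.8 in wt), the next in order, did not differ beyond theirs. Camk2a was at 3.95 in Dyrk1a+/- and 4.49 in wt and Dlg4 at 9.09 in Dyrk1a+/- and 9.30 in wt. Camk2b was at 16.4 in Dyrk1a+/- and 21.5 in wt, and Dlg3 at 20.1 in Dyrk1a+/- and 20.9 in wt. Dlgap1, at 1.895 in Dyrk1a+/- and 3.87 in wt, was among the lowest. The order depends on the length used. The median over the 51 genes was 8.12 CPM per kilobase of all annotated exons and 11.4 per kilobase of the longest transcript. By the longest transcript, Cadm1 (57.0) and Nrxn3 (56.0) lay above Lrrc4b (50.7), and Dlgap1 was at 7.18 (means over the 6 libraries).

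**Figure D4:**
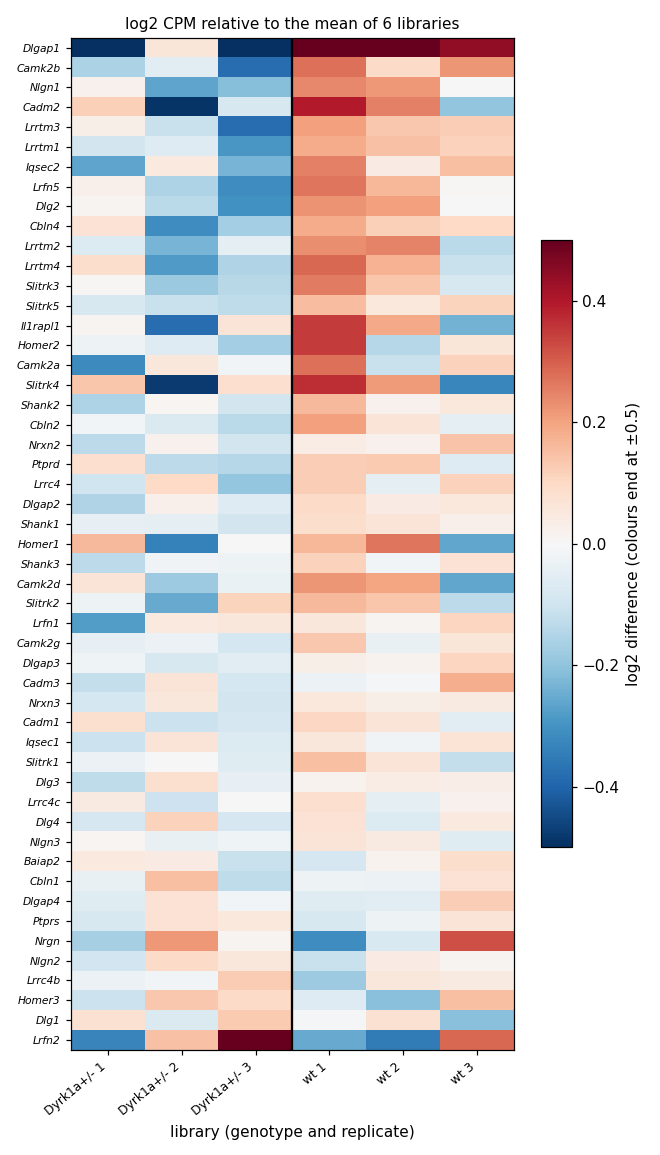
Log2 CPM of each gene (rows, ordered by log2 fold change from lowest to highest) in each library (columns, Dyrk1a+/- left of the line, wt right), relative to its mean over the 6 libraries; blue is lower and red higher, and colours end at 0.5 either way. Dlgap1, in the first row, is blue in Dyrk1a+/- replicates 1 and 3, and Dyrk1a+/- replicate 2 and wt replicate 3 share blue rows in Homer1, Slitrk4, Cadm2 and Il1rapl1.

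Library by library, 43, 36 and 43 of the 51 genes lay below the mean of the wt libraries in Dyrk1a+/- replicates 1, 2 and 3, with median log2 differences of -0.10, -0.10 and -0.13. In wt replicates 1, 2 and 3 the counts were 14, 28 and 26, and the medians 0.057, -0.011 and -0.012. The medians of the Dyrk1a+/- libraries were thus all below those of the wt libraries, and wt replicate 1 was the highest of the 6. Within the pair of libraries that stands apart, 41 of 51 genes were lower in Dyrk1a+/-, with a median difference of -0.09 in log2 CPM. Within the other 4, 41 were lower, with a median of -0.15, and 34 were lower in both. Since 41 of 51 were lower in each, most of the 51 had to be lower in both. For these counts and those by library, the share over all genes was not computed. Dlgap1 differed by -0.38 within the pair and by -1.46 within the other 4, and Camk2b by -0.28 and -0.46. With a term for the pair in the model, 17 of the 51 were lower at an unadjusted p under 0.05, against 8.23% of all genes, and 0 passed the adjusted threshold (edgeR), against 0.0309%; on the other 4 libraries alone 19 were lower, against 7.08% of all genes, and Dlgap1 passed. With the replicate number as a block 8 were lower, against 3.58%. Leaving out wt replicate 1 left 3 genes lower at an unadjusted p under 0.05, against 2.53% of all genes, and leaving out Dyrk1a+/- replicate 3 left 5, against 2.68%, while without wt replicate 3 there were 15, against 5.71%.

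In many of the 51 genes the pair differed from the other libraries the same way in both genotypes, and base composition moved with that difference; 14 genes were mixed. In 16 genes the pair was lower than the other libraries of its genotype in both genotypes, and their longest transcripts had 34.7% to 49.3% GC. In 21 genes it was higher in both, at 46.8% to 63.5% GC. For these counts too, the share over all genes was not computed. Slitrk4, of 34.7% GC, was at 15.9 and 17.7 CPM in the pair (Dyrk1a+/- and wt) and at 23.5 to 28.7 CPM in the other 4. Homer1, of 36.9% GC, was at 85.2 and 90.0 CPM in the pair (Dyrk1a+/- and wt) and 108 to 130 CPM in the others. Across the 51 genes the difference between the pair and the others correlated with GC at Spearman's rho 0.74, and across 19247 tested genes at 0.56. The genotype difference correlated with GC at 0.37 across the 51 genes and at -0.035 across all; genes are not independent replicates, and all points share the same 6 libraries. The part of GC content in the genotype differences was not tested.

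**Figure D5:**
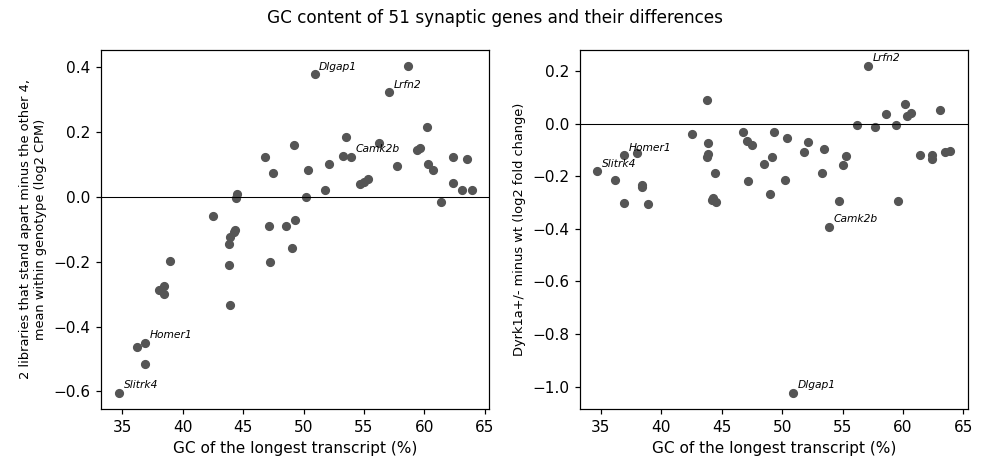
GC content of the longest transcript (x axis, %) of each of the 51 genes against, on the left, its difference in log2 CPM between the pair of libraries that stands apart and the other 4, averaged over both genotypes, and, on the right, its log2 fold change between Dyrk1a+/- and wt. On the left the points climb with GC (rho 0.74), with Slitrk4 lowest at 34.7% GC; on the right Dlgap1 lies far below the rest at 50.9% GC.

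Other genes of the same synaptic machinery, a list of 53 that are not among the 51, leaned the same way: 40 of 53 were lower (median log2 fold change -0.066), 6 lower (11.3%, against 4.61% of all genes) and 0 higher at an unadjusted p under 0.05, and none passed the adjusted threshold. The lowest p values belonged to Neto1, an auxiliary subunit of kainate receptors, at 9.76 to 11.4 CPM in Dyrk1a+/- and 14.2 to 17.6 CPM in wt (log2 fold change -0.61, SE 0.123; adjusted p = 0.483 by edgeR with Benjamini-Hochberg). Next were Prickle2, a planar polarity protein found at the postsynaptic density (-0.24, SE 0.071), and Clstn2, a calsyntenin that binds neurexins (-0.38, SE 0.14), both without overlap. Among the 13 higher genes the lowest p values were those of Mdga1, which blocks neuroligin binding to neurexins (0.21, SE 0.108), the receptor phosphatase Ptprf (0.16) and Lrfn3 (0.11), none at an unadjusted p under 0.05.

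Markers of several cell populations also lay apart between genotypes, though none passed the adjusted threshold. Over all genes, 4.61% were lower and 3.27% higher at an unadjusted p under 0.05. Of 12 pan-neuronal markers, such as Tubb3, Map2 and Snap25, 9 were lower, 4 of them at an unadjusted p under 0.05, and 3 higher. They summed to 6648 to 6885 CPM in Dyrk1a+/- and 7163 to 7637 CPM in wt, without overlap, and their median log2 fold change was -0.13. Of 15 markers of cycling cells all 15 were higher, 14 of them at an unadjusted p under 0.05, and they summed to 1252 to 1560 CPM in Dyrk1a+/- and 980 to 1081 CPM in wt. Of 6 markers of intermediate progenitors all 6 were higher, 4 at an unadjusted p under 0.05 (300 to 364 CPM in Dyrk1a+/- and 250 to 275 CPM in wt). Of 7 markers of oligodendrocyte precursors 6 were lower, 5 at an unadjusted p under 0.05 (160 to 204 CPM in Dyrk1a+/- and 236 to 251 CPM in wt), of 9 of microglia 8 were lower, 2 at that threshold (50.1 to 60.5 CPM in Dyrk1a+/- and 59.6 to 64.5 CPM in wt), and of 8 of meninges and fibroblasts 6 were lower, 4 at that threshold (405 to 448 CPM in Dyrk1a+/- and 461 to 543 CPM in wt). Markers of apical progenitors were higher in 7 of 10 cases, 3 at that threshold, and summed to 1116 to 1240 CPM in Dyrk1a+/- and 1068 to 1197 CPM in wt, astrocyte markers to 343 to 355 CPM in Dyrk1a+/- and 353 to 374 CPM in wt with 4 of 4 tested lower, 2 at that threshold. Endothelial, pericyte and choroid plexus sums overlapped between genotypes, and erythroid sums were 574 to 736 CPM in Dyrk1a+/- and 740 to 938 CPM in wt, with 6 of 7 lower, 3 at that threshold. The other erythroid marker, the embryonic globin Hbb-y, was at 21.5, 22.8 and 82.5 CPM in Dyrk1a+/- and 4.49, 6.54 and 9.53 CPM in wt, higher without overlap (log2 fold change 2.62, SE 0.533; adjusted p = 0.483 by edgeR with Benjamini-Hochberg). None of the markers of these cell populations was at 0 in all libraries. The part of these populations in the differences of the synaptic genes was not tested.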

How the data were processed

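RNA sequencing of forebrain in 3 Dyrk1a+/- and 3 wt samples of embryonic mice was analysed from the deposited raw counts per Ensembl gene, 1 column per library. Per the submitters' processing notes, bcl2fastq 2.17.1.14, HISAT2, SAMtools 1.9 and HTSeq 0.9.1 were used with GRCm38/mm10; which annotation release and strand setting they counted with is not given in the sources used here. In the labels the molecule is polyadenylated RNA, while the kit is for ribosome-depleted total RNA and marks strand. Symbols, positions and exon lengths came from GENCODE M21 (32888 of 33084 identifiers matched), and promoter windows from RefSeq on GRCm38.p6.

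In R 4.3.3, edgeR 4.0.16 kept 19403 genes (filterByExpr), scaled by TMM (factors 0.9944 to 1.003) and fitted genotype alone by quasi-likelihood, with Benjamini-Hochberg adjustment over all genes; limma 3.58.1 (voom) and DESeq2 1.42.0 were alternatives. CPM uses effective library sizes, and standard errors come from the F statistic. The fit was tested on simulated counts with known changes. It called 24 of 50 genes changed 1.5-fold (48%) and 40 of 50 changed 2-fold (80%). Of 167 genes called, 8 were unchanged. The simulated counts were drawn independently for each gene, without the difference shared by the library pair. The shares called are therefore not the power of the comparison of the real libraries.

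No library copied another (chi-square over its degrees of freedom, 4.55 at the lowest). The genes, lists and alternatives were chosen with earlier results of these data known. Per-library values are given for genes at an unadjusted p under 0.05 and for the lowest p and the highest level per kilobase in each of 8 role classes, 18 in all; Dlgap2, Dlgap3, the SHANK, HOMER and remaining genes were added, after their values were seen, to complete the families, and the 3 of lowest p per direction among the other synapse genes are named. Part of the forebrain marker list is not reported here.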

Additional observations from a re-analysis of the deposited data

How the results depend on the processing

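The number of genes called over all 19403 (2 by edgeR) was 27 with DESeq2, 4 with no low-count filter, 6 with a term for the library pair, 6 on the other 4 libraries alone, 0 with the replicate block (edgeR; at an unadjusted p under 0.05, 694 were lower and 416 higher) and 0 to 5 with 1 library left out. Of the 51 genes Dlgap1 alone passed, on the other 4 libraries and without Dyrk1a+/- replicate 2, so that 0 to 1 passed with 1 library left out. The count lower at an unadjusted p under 0.05 by edgeR was 9, against 4.61% of all genes. It was 17 with the pair term, against 8.23%, and 19 on the other 4, against 7.08%. With the replicate block it was 8, against 3.58%. With 1 library left out it ran from 3 (without wt replicate 1, against 2.53%) to 15 (without wt replicate 3, against 5.71%). Deviations from the genotype mean correlated at 0.201, -0.325 and -0.165 between same-numbered libraries. Between differently numbered libraries of the genotypes they correlated at -0.314 to 0.452, the highest being that of the library pair. The median log2 fold change (-0.12) ran from -0.137 to -0.088 with 1 library left out. Between 41 and 48 of the 51 were lower in each setting. Near-zero values changed sign: the log2 fold change of Dlgap4 was 0.002 with DESeq2 and 0.024 on the other 4. With 1 library left out, Dlgap4 ran from -0.04 to 0.06, Ptprs from -0.004 to 0.075, Nlgn2 from -0.004 to 0.095 and Lrrc4b from -0.022 to 0.09. The cause was not tested. The median level per kilobase was 8.12 CPM by all exons and 11.4 by the longest transcript. Thinning to the smallest total, 18699434 counts, was added after seeing the data.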

Other observations

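Around Dlgap1 on GRCm38 chromosome 17, 14 genes within 0.6 Mb of its ends were tested. Of these 3 were lower in Dyrk1a+/-, none at an unadjusted p under 0.05, with log2 fold changes from -0.19 to 0.46. The lowest was that of A930029G22Rik, at only 0.29 to 0.61 CPM over the 6 libraries. Tgif1, which encodes a homeobox repressor, had the highest, at 5.70, 7.20 and 6.99 CPM in Dyrk1a+/- and 4.55, 5.04 and 4.91 CPM in wt. Its groups did not overlap, and it was the 1 neighbour at an unadjusted p under 0.05 by edgeR. Over all genes tested, 6.53% were higher without overlap and 3.27% were higher at that threshold. Smchd1, the most abundant of the 14, was at 228, 198 and 236 CPM in Dyrk1a+/- and 206, 217 and 178 CPM in wt, with overlap. The window was chosen after the Dlgap1 values were seen.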
